A study of Mus musculus with 24 samples.

Results

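The genes described here are 10 regulators of kidney lineage, namely 9 transcription factor genes (Gata3, Elf5, Elf3, Tfap2b, Sall1, Pou3f3, Irx1, Irx2 and Emx1) and the receptor gene Ret, out of 18194 genes on the arrays. They were chosen by name as genes tied to the ureteric bud or to nephron progenitors. All 10 were measured, by 16 of the 45101 probe sets, and each gene was read at the 1 whose mean across the 24 arrays was highest. Left out was 1 more probe set, which the annotation shares with another gene. No filter on low values was used, so every gene was tested.

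The arrays compared 2 microdissected tubule segments of the mouse kidney over the day. The DCT/CNT groups held distal convoluted tubules and connecting tubules in 1 sample, and the CCD groups held cortical collecting ducts. Each segment was sampled at ZT0, 4, 8, 12, 16 and 20, where ZT is the time in hours after lights on and darkness began at ZT12. Every segment and time had 2 RNA pools with 1 array each, which gave 12 DCT/CNT and 12 CCD arrays. All groups were male C57BL/6J mice, an inbred strain, of 25 to 30 g, with no treatment named beyond a day of 12 h light and 12 h dark, and the tubules were dissected from the left kidney after collagenase digestion. RNA of 5 animals per time went into the pools, and 10 ng was amplified per array. The labels give no ages and do not say whether the pools of a time, or the segments, came from the same animals, so p-values measure the spread between pools, which may be technical. A pool mixes all cells of its segment, and fewer cells of a type cannot be told apart from less RNA per cell.

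The kidney tubule has a double origin. Collecting ducts grow from the ureteric bud, an outgrowth of the nephric duct that branches when GDNF from the surrounding mesenchyme binds the receptor tyrosine kinase Ret and its co-receptor on bud tip cells. The rest of the tubule, with the distal convoluted tubule, forms from nephron progenitors of the mesenchyme, and the connecting tubule joins it to the duct. Transcription factors set up in these lineages often stay active in the adult epithelium.

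The segment labels were checked against defining markers. Slc12a3, the sodium-chloride cotransporter of the distal convoluted tubule, averaged 10.77 log2 units in DCT/CNT and 5.28 in CCD. Aqp2, the vasopressin-regulated water channel of principal cells, averaged 7.95 in DCT/CNT and 10.25 in CCD. Calb1, the calcium-binding protein calbindin, averaged 12.56 in DCT/CNT and 11.81 in CCD, so it was high in both segments. Slc12a3 was below 10 on 4 DCT/CNT arrays, namely at 9.29 (ZT0, pool 2), 9.61 and 9.44 (both pools at ZT8) and 8.48 (ZT16, pool 1). The moderated test of limma called 30.4% of all genes higher and 47.0% lower in DCT/CNT. By this test all 12 distal convoluted tubule markers were higher and all 13 principal cell markers lower. After equal medians, quantile and cyclic loess normalisation 12, 11 and 11 of the 12 were higher and 12, 11 and 10 of the 13 lower.

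Values by segment and time are on the deposited log2 scale, where 1 unit is a 2-fold change. The spread of all probe sets on an array, as the interquartile range, was 3.32 to 3.65 log2 units on DCT/CNT arrays and 4.08 to 4.28 on CCD arrays. Segment differences also varied with the level of the gene. When genes were cut into 10 equal groups by mean level, from 1 (lowest) to 10, the median DCT/CNT minus CCD difference was 0.41 in group 2 and -0.48 in group 9, against -0.13 over all genes. Each of the 10 genes below, and each gene named from a related list, is given as deposited and also relative to the median of its level group.

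In DCT/CNT, 4 of the 10 genes were higher than in CCD (Sall1, Emx1, Ret and Irx2), 5 were lower (Elf5, Gata3, Elf3, Pou3f3 and Tfap2b, the last with a sign that turned under other scalings) and Irx1 did not pass the test (limma, adjusted p under 0.05 over all genes). The background was high, since 77.4% of all genes passed this test, 30.4% higher and 47.0% lower, so the count of 9 is near it. A stricter test, limma's treat against a minimum difference of 2-fold, called 3 genes, Sall1 and Emx1 higher and Elf5 lower, where 2.76% of all genes were called, 0.901% higher and 1.86% lower. The 12 DCT/CNT and 12 CCD values did not overlap for 7 genes, of which Sall1, Emx1 and Ret were higher and Elf5, Gata3, Elf3 and Pou3f3 lower, against 27.8% of all genes, 8.43% higher and 19.4% lower. The median difference of the 10 genes was -0.06, beside -0.13 over all genes.

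**Figure D1:**
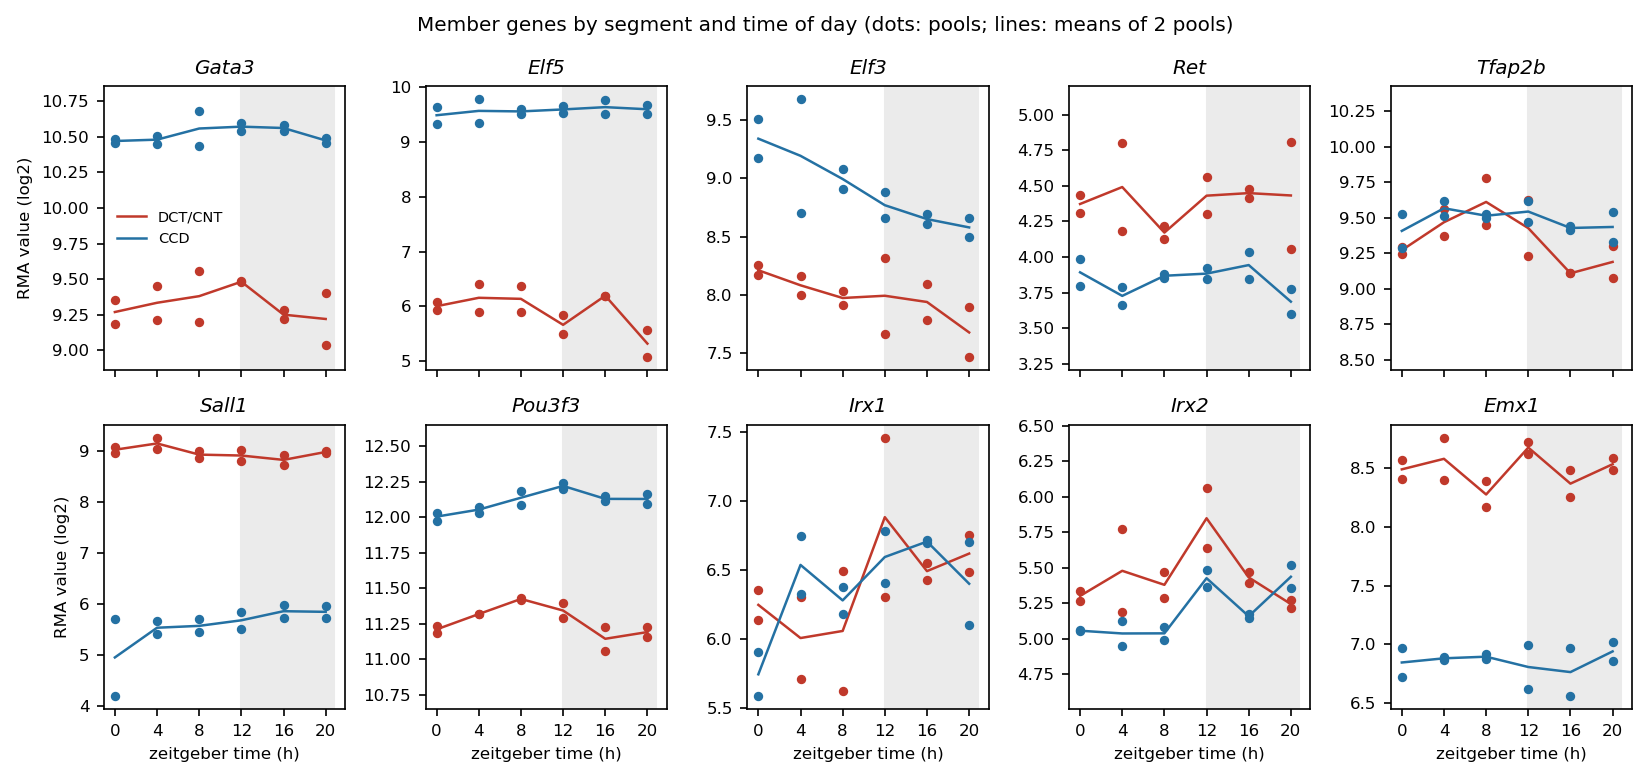
Deposited RMA values (log2 units, vertical axis) of the 10 genes against zeitgeber time in hours, with DCT/CNT in red and CCD in blue; dots are pools, lines join the means of 2 pools, and grey marks darkness. Each panel has its own level range of at least 2 log2 units. Elf5, Gata3, Elf3 and Pou3f3 lie lower in DCT/CNT and Sall1, Emx1 and Ret higher at every time, while Tfap2b, Irx1 and Irx2 overlap.

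Promoter sequences of the 3 genes called beyond 2-fold, and of Gata3, show the stretch upstream of each start site. They are 250 bases from RefSeq (assembly GRCm38.p6), written 5′ to 3′ on the strand of the gene, and capitals mark matches to the AP-2 motif GCCNNNGGC, which factors of the Tfap2b family bind. Gata3 lies at chr2:9878601-9878850 on the minus strand, Elf5 (the first of its 2 windows) at chr2:103411848-103412097 on the plus strand, Sall1 (the window farthest upstream of 3) at chr8:89044163-89044412 on the minus strand, and Emx1 at chr6:85187681-85187930 on the plus strand.
Gata3: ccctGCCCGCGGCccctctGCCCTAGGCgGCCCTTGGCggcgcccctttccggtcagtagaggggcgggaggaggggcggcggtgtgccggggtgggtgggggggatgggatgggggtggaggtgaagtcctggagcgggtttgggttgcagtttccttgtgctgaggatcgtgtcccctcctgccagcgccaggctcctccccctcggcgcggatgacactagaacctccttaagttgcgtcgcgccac
Elf5: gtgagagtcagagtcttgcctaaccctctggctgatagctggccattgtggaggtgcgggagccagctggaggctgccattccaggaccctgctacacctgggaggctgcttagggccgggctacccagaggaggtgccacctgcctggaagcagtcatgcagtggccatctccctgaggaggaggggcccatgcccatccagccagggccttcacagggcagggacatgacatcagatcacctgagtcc
Sall1: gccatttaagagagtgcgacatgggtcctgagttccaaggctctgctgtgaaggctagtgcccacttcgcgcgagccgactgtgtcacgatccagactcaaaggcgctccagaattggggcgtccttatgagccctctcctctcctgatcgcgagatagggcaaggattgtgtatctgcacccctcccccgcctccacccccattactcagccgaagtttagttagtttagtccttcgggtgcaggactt
Emx1: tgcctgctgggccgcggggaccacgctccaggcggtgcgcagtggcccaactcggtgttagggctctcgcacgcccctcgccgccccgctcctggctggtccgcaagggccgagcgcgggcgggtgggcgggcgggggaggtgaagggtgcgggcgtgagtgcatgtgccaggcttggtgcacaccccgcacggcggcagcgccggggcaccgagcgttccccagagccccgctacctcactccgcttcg

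The Gata3 window held 3 AP-2 matches and a GC content of 70.0%, against 62.8% for Elf5, 56.4% for this Sall1 window and 75.6% for Emx1. Windows were listed for 8 of the 10 genes, 11 windows in all, and were searched on both strands. AP-2 matches lay in 2 of the 11 windows, those of Gata3 and Irx2, beside 13.7% of all 32851 windows of this length. The windows of Elf5, Sall1 and Emx1 held none. No window of the 8 genes held a GATA site (AGATAA or TGATAA, in 16.6% of all windows), the ETS site CCGGAAGT (2.88%) or the E-box CACGTG (6.02%), nor the HNF1 motif (0.00913%). A match is a run of letters and not a bound site.

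Elf5, an ETS-family factor of the collecting duct that marks principal cells, had the largest fall of the 10 genes. Its values ran from 5.07 through a median of 5.92 to 6.41 in DCT/CNT, against 9.34, 9.56 and 9.79 in CCD. Every DCT/CNT array was more than 2 log2 units below every CCD array. The difference was -3.66 (SE 0.09, n = 12 arrays each, limma adjusted p = 1.20e-13), a 12.7-fold lower level, and -3.23 relative to the median gene of its level. By time the difference ranged from -4.28 at ZT20 to -3.41 at ZT4. The further probe set of Elf5 gave -3.02 (SE 0.08), the same direction.

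Gata3, a zinc finger factor needed for the nephric duct and for Ret expression in it, was lower in DCT/CNT and still bright there. It measured 9.03, 9.32 and 9.56 (lowest, median, highest) in DCT/CNT, and 10.44, 10.50 and 10.68 in CCD. The groups did not overlap at any time. The difference was -1.20 (SE 0.06, n = 12 each, limma adjusted p = 5.35e-11), a 2.29-fold lower level, and -0.72 relative to genes of its level. Against a minimum of 2-fold it was not called, with a treat adjusted p of 0.0578. The Gata3 difference was -0.99 with equal array medians, -0.74 after quantile and -0.75 after cyclic loess normalisation, and it was called at adjusted p under 0.05 under each of the 3.

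Elf3, an ETS-family factor of epithelia, measured 7.46, 8.02 and 8.32 in DCT/CNT, and 8.50, 8.79 and 9.68 in CCD. Its 3 highest CCD values were both ZT0 pools and 1 of the ZT4 pools, and all CCD pools lay above all DCT/CNT pools. The difference was -0.94 (SE 0.11, n = 12 each, limma adjusted p = 8.32e-07), or 1.92-fold lower, and -0.49 relative to genes of its level.

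Ret, the GDNF receptor, was dim in both segments: on average 26.2% of probe sets read lower on DCT/CNT arrays and 22.3% on CCD arrays. Its values were 4.06, 4.36 and 4.81 in DCT/CNT, and 3.60, 3.85 and 4.04 in CCD, with the lowest DCT/CNT pool just above the highest CCD pool. The difference was 0.56 (SE 0.09, n = 12 each, limma adjusted p = 2.13e-05). Among genes of the same level group the median difference was 0.41 and 68.7% were called higher, which leaves 0.15 for Ret. After quantile and cyclic loess normalisation the difference was 0.26 and 0.29. The further Ret probe set, dimmer still, measured 2.38, 2.54 and 2.79 in DCT/CNT, and 2.30, 2.63 and 2.82 in CCD, and its difference of -0.07 (SE 0.05) did not pass (adjusted p = 0.229 over all probe sets). The deposited values hold no detection calls, so whether Ret was above background was not tested.

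Sall1, a zinc finger factor that the metanephric mesenchyme needs to draw in the ureteric bud, had the largest rise of the 10 genes. It measured 8.74, 8.98 and 9.27 in DCT/CNT, and 4.19, 5.70 and 5.98 in CCD. Pool 2 of CCD at ZT0 gave the 4.19, and the other 11 CCD pools began at 5.41. The difference was 3.40 (SE 0.13, n = 12 each, limma adjusted p = 5.72e-12), a 10.6-fold higher level, and 3.72 relative to genes of its level. Without that CCD pool it was 3.27. The further probe set, at 5.27, 5.71 and 6.13 in DCT/CNT and 4.57, 4.77 and 4.91 in CCD, gave a smaller difference of 0.98 (SE 0.09).

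Emx1, a homeobox factor best known from the cerebral cortex, measured 8.17, 8.49 and 8.76 in DCT/CNT, and 6.56, 6.88 and 7.02 in CCD. The segments stayed more than 1 log2 unit apart on every array. The difference was 1.64 (SE 0.07, n = 12 each, limma adjusted p = 1.49e-11), a 3.11-fold higher level, and 2.07 relative to genes of its level. The probe sets of Emx1 disagreed: the further one measured 5.38, 5.54 and 5.97 in DCT/CNT, and 5.26, 5.51 and 5.79 in CCD, a difference of 0.08 (SE 0.07, adjusted p = 0.323 over all probe sets). With both probe sets averaged, the Emx1 difference was 0.86 and the call beyond 2-fold was lost.

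Pou3f3 (Brn1), a POU-domain factor needed for the loop of Henle and the distal convoluted tubule in the mouse, was bright in both segments, above 97.3% of probe sets on DCT/CNT arrays and 98.3% on CCD arrays on average. It measured 11.06, 11.26 and 11.43 in DCT/CNT, and 11.98, 12.10 and 12.24 in CCD. Every CCD pool exceeded every DCT/CNT pool. The difference was -0.84 (SE 0.04, n = 12 each, limma adjusted p = 1.86e-11), a 1.79-fold lower level, and -0.48 relative to genes of its level. The further probe set gave -0.43 (SE 0.09).

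Tfap2b, an AP-2 factor of the distal nephron, was bright in both segments, and its direction depended on the scaling. It measured 9.08, 9.30 and 9.78 in DCT/CNT, and 9.28, 9.51 and 9.62 in CCD, and the groups overlapped over most of their range. The deposited difference was -0.14 (SE 0.06, n = 12 each, limma adjusted p = 0.0475). It was 0.073 with equal array medians (adjusted p = 0.235), and 0.33 both after quantile (adjusted p = 1.30e-04) and after cyclic loess normalisation (adjusted p = 1.09e-04). The further probe set gave -0.39 (SE 0.08) in the deposited values. Relative to genes of its level the deposited Tfap2b difference was 0.34.

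Irx1 and Irx2 are Iroquois homeobox factors, and in the frog Iroquois genes pattern the intermediate tubule of the pronephros. Irx1 measured 5.62, 6.39 and 7.46 in DCT/CNT, and 5.58, 6.39 and 6.78 in CCD, with full overlap. Its difference was 0.01 (SE 0.14, n = 12 each, limma adjusted p = 0.964), with a 95% interval of -0.29 to 0.30, and it was 0.066 relative to genes of its level. Irx2 measured 5.19, 5.37 and 6.06 in DCT/CNT, and 4.95, 5.13 and 5.52 in CCD, with overlap. The Irx2 difference was 0.25 (SE 0.07, n = 12 each, limma adjusted p = 0.00257), yet 0.04 relative to genes of its level, and the call was lost after quantile (0.13, adjusted p = 0.112) and cyclic loess normalisation (0.08, adjusted p = 0.334).

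**Figure D2:**
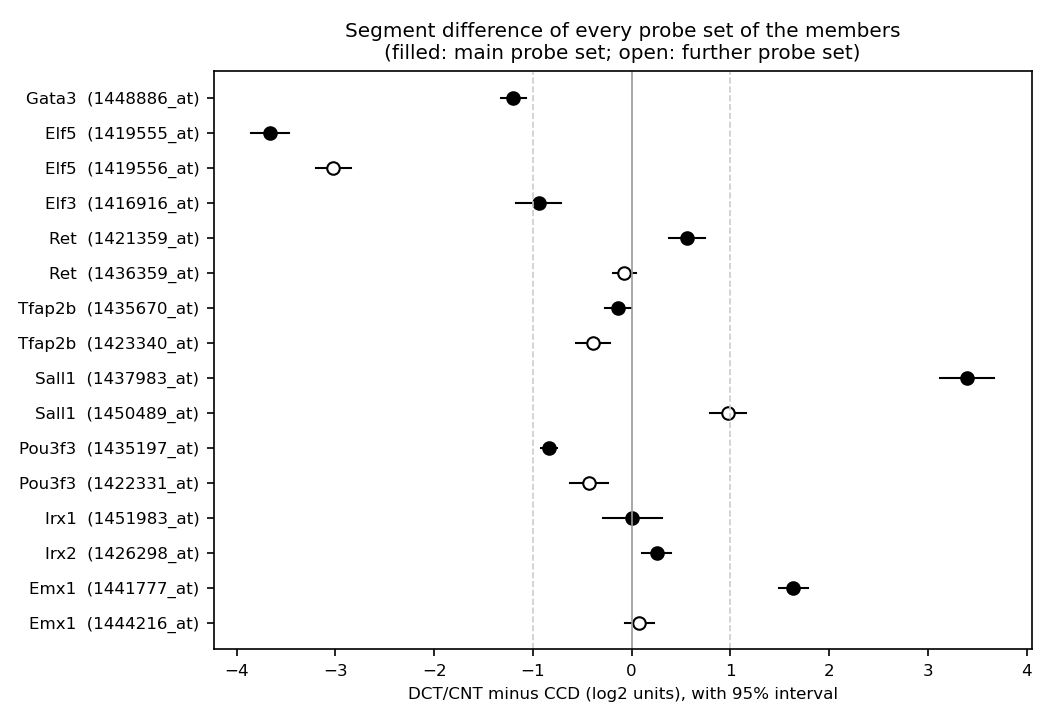
DCT/CNT minus CCD difference (log2 units, horizontal axis) of each of the 16 probe sets with its 95% interval; filled points are the probe sets read for each gene, open points further ones, and dashed lines mark a 2-fold change. The 2 Elf5 probe sets lie at -3.66 and -3.02, those of Sall1 at 3.40 and 0.98, and those of Emx1 at 1.64 and 0.08.

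Of the 6 genes with a further probe set, Elf5, Sall1, Pou3f3, Tfap2b and Emx1 had the same sign in both deposited differences. The further one of Emx1 was near 0, at 0.08. Ret had opposite signs, at 0.56 and -0.07. With p-values adjusted over all probe sets, both probe sets of Elf5, Sall1 and Pou3f3 were called. Emx1 and Ret were called by the probe set read for the gene alone, and Tfap2b by its further one alone (adjusted p = 3.90e-04, against 0.0568 for the one read). Gaps in level between probe sets were not read as gaps in RNA amount, since each has its own affinity.

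**Figure D3:**
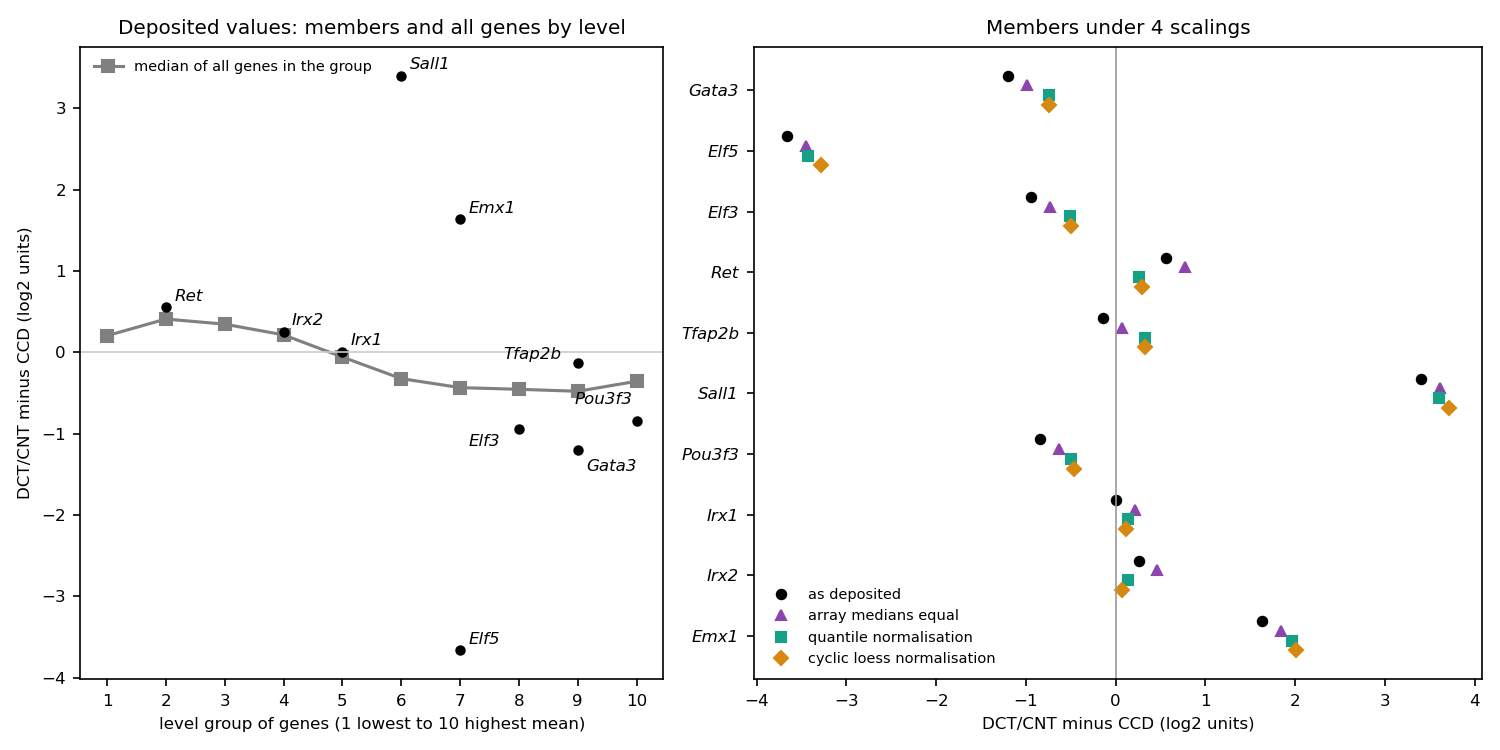
Left, DCT/CNT minus CCD difference (log2 units) against the level group of the gene (1 lowest, 10 highest mean), with the median of all genes per group in grey and the 10 genes as dots. Right, the difference of each gene under 4 scalings: Elf5, Gata3, Elf3 and Pou3f3 stay below 0 and Sall1, Emx1 and Ret above it, whereas Tfap2b moves from -0.14 to 0.33.

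Marker lists of other cells were counted against the same background, 30.4% of all genes called higher and 47.0% lower as deposited, and 35.9% and 30.1% after cyclic loess normalisation. As deposited, each list is also set beside its level share, the mean share called in the level groups of its own genes. For distal convoluted tubule markers the level share was 12.2% higher and 69% lower, and for principal cell markers 7.5% and 77.5%. Thick ascending limb markers were 5 higher and 2 lower of 9, and their list mean ranged from 6.17 to 7.07 on DCT/CNT arrays and from 5.57 to 6.93 on CCD arrays. Markers of vascular smooth muscle, mesangium and fibroblasts were 8 higher and 2 lower of 12, with list means of 6.35 to 7.05 in DCT/CNT and 6.04 to 6.54 in CCD. After cyclic loess normalisation these counts were 6 and 2, and 9 and 2. Connecting tubule markers were 4 higher and 6 lower of 10, with list means of 11.59 to 11.91 in DCT/CNT and 11.04 to 11.41 in CCD, and 6 higher and 1 lower after cyclic loess. As deposited that is 40% higher and 60% lower, beside a level share of 5.39% and 81.4%. Scnn1b, Scnn1g and Hsd11b2 were counted both here and among principal cell markers. Intercalated cell markers were 1 higher and 10 lower of 13, with list means of 10.57 to 10.91 in DCT/CNT and 11.05 to 11.36 in CCD, but 4 higher and 5 lower after cyclic loess. Their deposited 7.69% higher and 76.9% lower were near the level share of 5.49% and 81.1%. Proximal tubule markers were 2 higher and 8 lower of 19, and 3 and 3 after cyclic loess. Their list means overlapped almost fully, at 6.88 to 8.36 in DCT/CNT and 6.97 to 8.50 in CCD. Endothelial markers were 3 higher and 3 lower of 12, and 8 and 0 after cyclic loess. Leukocyte markers were 3 higher and 0 lower of 14, and 10 and 1 after cyclic loess. Podocyte markers were 2 higher and 1 lower of 5 (1 and 2 after cyclic loess), and urothelial markers 4 and 1 of 7 (4 and 2). Level shares were 40% higher and 37.5% lower for thick ascending limb markers, and 26.4% and 46.3% for smooth muscle, mesangium and fibroblasts. They were 20.4% and 58.6% for proximal tubule, 11.2% and 68.8% for endothelial and 30.5% and 48.2% for leukocyte markers. For podocyte markers they were 39% and 40.8%, and for urothelial markers 33.8% and 38.4%. The part of these cells in the segment differences was not tested. Without the 4 DCT/CNT pools low in Slc12a3 (and without the CCD pools at ZT8, which then lack a partner), 9 genes were again called and 3 beyond 2-fold, with Elf5 at -3.70, Sall1 at 3.41 and Emx1 at 1.73.

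For time of day, a 24 h cosine curve was fitted per segment, with amplitude as the distance from mean to peak. In DCT/CNT the curve passed the test for Tfap2b alone, 1 of 10 genes beside 6.57% of all genes. In CCD it passed for 0 of 10 beside 2.47% of all genes, and 1 gene, Elf3, had an unadjusted p under 0.05 (14.2% of all genes did). The rhythms of the segments differed for 0 of 10 genes, beside 0.011% of all, and Pou3f3 was the gene with an unadjusted p under 0.05 in that test (0.0258), as had 8.89% of all genes.

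Tfap2b in DCT/CNT peaked at ZT 7.03 with an amplitude of 0.23 (SE 0.05, limma adjusted p = 0.0281). Its pools read 9.25 and 9.29 at ZT0, 9.56 and 9.37 at ZT4, 9.45 and 9.78 at ZT8, 9.23 and 9.62 at ZT12, 9.11 and 9.11 at ZT16, and 9.30 and 9.08 at ZT20. Both ZT8 pools lay above both ZT16 pools, and the 2 ZT12 pools lay far apart. In CCD its amplitude was 0.07 (SE 0.05, adjusted p = 0.799), and the difference between the segments did not pass (adjusted p = 0.657). The Tfap2b call rested on single pools: it was lost without pool 1 at ZT4 (adjusted p = 0.0564), pool 2 at ZT8 (0.101), pool 2 at ZT16 (0.0595) or pool 2 at ZT20 (0.0629), and in 5 of 6 fits without a time. An F test over group means, which called 2.47% of all genes in DCT/CNT and 0.643% in CCD, did not call it (adjusted p = 0.201).

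Pou3f3 followed in DCT/CNT with an amplitude of 0.13 (SE 0.03), a peak at ZT 7.65 and an adjusted p of 0.0523 by limma, just outside the threshold. Its pools read 11.19 and 11.24 at ZT0, 11.32 and 11.32 at ZT4, 11.42 and 11.43 at ZT8, 11.29 and 11.40 at ZT12, 11.23 and 11.06 at ZT16, and 11.23 and 11.16 at ZT20. The ZT8 pools were the highest. The Pou3f3 call changed with the settings. It passed without dim genes (adjusted p = 0.0155), with an intensity trend and robust prior (0.00623) and without pool 1 at ZT20 (0.0412). With both Pou3f3 probe sets averaged the amplitude was 0.04 (adjusted p = 0.837).

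Elf5 in DCT/CNT had its lowest time mean, 5.32, at ZT20 and its highest, 6.20, at ZT16 (amplitude 0.23, SE 0.11, limma adjusted p = 0.374), and in CCD its means ran from 9.49 to 9.64. Gata3 had time means of 9.22 (ZT20) to 9.48 (ZT12) in DCT/CNT, and of 10.47 to 10.57 in CCD. Sall1 ran from 8.83 (ZT16) to 9.15 (ZT4) in DCT/CNT, and from 4.95 (ZT0) to 5.86 (ZT16) in CCD, where ZT0 held the low pool. Emx1 ran from 8.28 (ZT8) to 8.68 (ZT12) in DCT/CNT, and from 6.76 to 6.94 in CCD. Ret ran from 4.17 (ZT8) to 4.49 (ZT4) in DCT/CNT, and from 3.69 to 3.94 in CCD. None of these 5 genes passed the test in either segment, although without ZT16, its highest time, Elf5 was called in DCT/CNT (amplitude 0.51, adjusted p = 0.0333).

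Elf3 in CCD had an amplitude of 0.35 (SE 0.11, limma adjusted p = 0.192) and a fitted peak at ZT 3.51. Its CCD pools read 9.17 and 9.51 at ZT0, 8.71 and 9.68 at ZT4, 9.08 and 8.91 at ZT8, 8.66 and 8.88 at ZT12, 8.61 and 8.69 at ZT16, and 8.66 and 8.50 at ZT20. The ZT4 pools were nearly 1 log2 unit apart, and without the lower of them, pool 1, Elf3 was called (amplitude 0.47, adjusted p = 0.0437). Group means of the other genes spanned, within a segment, from 0.10 log2 units for Gata3 in CCD to 0.96 for Irx1 in CCD. The 2 DCT/CNT pools of ZT12 read 6.31 and 7.46 for Irx1.

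Among the pairs of the 10 genes, Tfap2b and Pou3f3 varied together over the 12 DCT/CNT arrays (Pearson's r = 0.857, permutation p = 3.40e-04, adjusted p = 0.0306; Spearman's rho = 0.888, permutation p = 2.60e-04, adjusted p = 0.0234). These were two-sided tests, adjusted over 90 relations, 45 in each segment, and no other pair passed. The permutations shuffled the 12 arrays without regard to time, so a course over the day shared by both genes can also lower these p-values. Co-variation apart from time was not tested. Without the 2 arrays farthest from the median of Tfap2b, r was 0.776. Over the CCD arrays r was 0.200 (permutation p = 0.533), and the difference between the segments was not tested. Over the 6 DCT/CNT time means r was 0.985. For the 6 differences between the 2 pools of a time, a correlation taken about 0 instead of the mean was 0.518, and it was not tested. Equal array medians gave r = 0.829 in DCT/CNT and r = 0.144 in CCD. The gap between the segments rested on the choice of probe sets. With the further Tfap2b probe set r was 0.529 in DCT/CNT and 0.510 in CCD, with the further Pou3f3 probe set 0.202 in DCT/CNT and 0.549 in CCD, and with both further probe sets 0.462 in DCT/CNT and 0.484 in CCD. The 2 probe sets of Pou3f3 correlated at -0.028 with each other over the DCT/CNT arrays, and those of Tfap2b at 0.707.

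**Figure D4:**
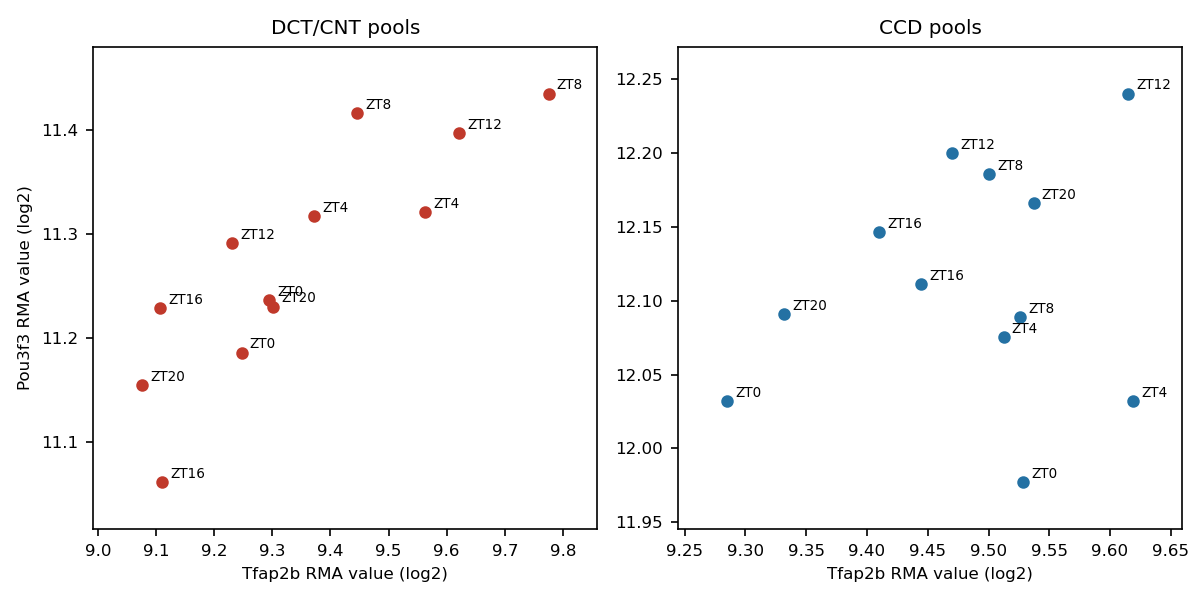
Pou3f3 against Tfap2b, both as RMA values in log2 units, over the 12 DCT/CNT arrays (left) and the 12 CCD arrays (right), each point 1 pool labelled by zeitgeber time. In DCT/CNT both ZT8 pools lie above both ZT16 pools in both genes (r = 0.857), and in CCD r is 0.200. With a further probe set in place of one or both, r is 0.202 to 0.529 in DCT/CNT and 0.484 to 0.549 in CCD.

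Genes of the same pathways were read from lists of related genes, each counted without the 10 genes. Some genes, such as Etv4, Etv5, Gata2, Ehf and Emx2, were counted in several lists, so the counts are not independent. They are set beside the 30.4% of all genes called higher and the 47.0% called lower as deposited, and the 36% and 29.6% after quantile and 35.9% and 30.1% after cyclic loess normalisation. Since calls varied with level, each list is also set beside the mean share called in the level groups of its own genes. Of 23 genes of GDNF and Ret signalling, 8 were higher and 10 lower in DCT/CNT, with a median difference of -0.08, and 8 and 8 after cyclic loess normalisation. That is 34.8% higher and 43.5% lower, near the 34.7% and 41.7% at their levels. Beyond 2-fold, Sox8, a SOX factor that acts downstream of Ret, was higher by 1.55 (SE 0.09), or 1.15 relative to genes of its level. Spry1, the inhibitor that restrains Ret signalling in the bud, had a difference of -1.48 (SE 0.09), or -1.15 relative to its level. Its relative Spry2 had a difference of -1.36 (SE 0.06), or -0.89 relative to its level. Sox8 and both Spry genes kept their sign under every scaling tried, at 1.28 to 1.76, -1.48 to -1.15 and -1.36 to -0.91, although the Spry1 and Spry2 calls beyond 2-fold were lost after each rescaling. The Sox8 call beyond 2-fold was lost after cyclic loess (treat adjusted p = 0.0903) and was just inside the threshold after quantile normalisation (0.0497).

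Of 16 other transcription factors of the ureteric bud and collecting duct, 2 were higher and 13 lower, with a median of -0.81, the lowest of the 5 lists. The 81.2% called lower compares with 65.6% at the levels of these genes, and the median was -0.38 relative to them. Klf5, a zinc finger factor of the collecting duct, averaged 4.60 in DCT/CNT and 6.46 in CCD, a difference of -1.87 (SE 0.08), or -2.08 relative to its level. Dmrt2, a DM-domain factor, averaged 7.75 in DCT/CNT and 9.51 in CCD, a difference of -1.76 (SE 0.08), or -1.30 relative to its level. Emx2, the paralog of Emx1 and a factor the ureteric bud needs, averaged 9.43 in DCT/CNT and 10.90 in CCD, a difference of -1.47 (SE 0.05), or -0.99 relative to its level, opposite in sign to Emx1. Klf5 and Dmrt2 kept their calls beyond 2-fold after each of the 3 rescalings, and Emx2 lost its call after quantile and cyclic loess normalisation (treat adjusted p = 1 in both). After quantile or cyclic loess normalisation 11 of the 16 were lower and 2 higher, with medians of -0.36 and -0.35.

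Of 13 other transcription factors of nephron progenitors, 8 were higher and 0 lower, with a median of 0.36, and none passed 2-fold. The remaining 5 did not pass the test. The shares of 61.5% higher and 0% lower compare with 45.8% and 27.4% at the levels of these mostly dim genes, and the median was 0.12 relative to them. After quantile normalisation 6 were higher and 0 lower, and after cyclic loess 6 and 1. Of 17 other distal nephron factors, 5 were higher and 10 lower (median -0.32), which is 29.4% and 58.8% beside 22.4% and 59.1% at their levels, and after quantile or cyclic loess normalisation 6 and 6. Among them Esrrb, an orphan nuclear receptor, averaged 5.82 in DCT/CNT and 4.07 in CCD, a difference of 1.75 (SE 0.19), or 1.40 relative to its level. It was called beyond 2-fold in the deposited values and with equal medians but not after quantile or cyclic loess normalisation.

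Of 24 paralogs of the 10 genes, 12 were higher and 8 lower, with a median of 0.24, and 11 and 8 after cyclic loess normalisation. That is 50% higher and 33.3% lower, beside 41.4% and 35.7% at their levels. Gata6 averaged 3.75 in DCT/CNT and 5.28 in CCD, a difference of -1.53 (SE 0.07), or -1.88 relative to its level, the same sign as Gata3. The Elf4 difference was -1.43 (SE 0.10), or -1.0 relative to its level, the same sign as Elf5 and Elf3. Gata6 and Emx2 stayed below 0 under every scaling tried, at -1.81 to -1.32 and -1.47 to -1.02. Gata6 also kept its call beyond 2-fold after each rescaling, whereas Elf4, at -1.43 to -1.05, lost it with equal medians (treat adjusted p = 0.395), after quantile and after cyclic loess normalisation (1 in both).

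**Figure D5:**
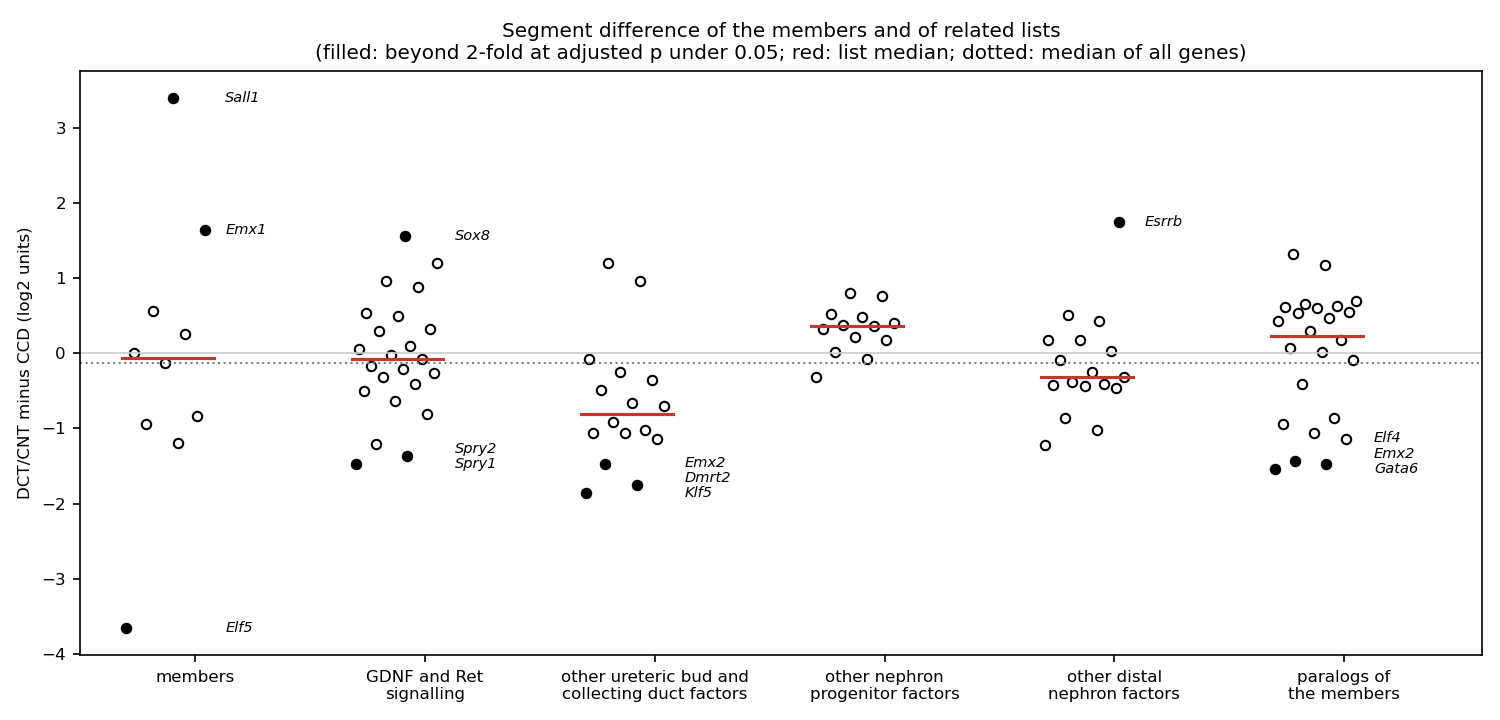
DCT/CNT minus CCD difference (log2 units, vertical axis) of the 10 genes and of the genes of 5 related lists, with filled points called beyond 2-fold at adjusted p under 0.05 in the deposited values. Red bars are list medians and the dotted line is the median of all genes, -0.13. The list of ureteric bud and collecting duct factors has the lowest median, -0.81.

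For each gene, the 3 genes with the most similar pattern over the 12 group means were found by Pearson's r, as a description, since the group means share the same arrays and mostly follow the segment. For Elf5 these were Anxa4, Fxyd4 and Pde1c (r = 0.998 to 0.997), and 2057 genes exceeded r = 0.95. Gata3 was most like Ugt8a, Tollip and Anxa1 (0.998 to 0.997), and Pou3f3 most like Polr2a, Cdk2ap1 and Gatad2b (0.996 to 0.995). Sall1 was closest to Hoxa10, Hoxa9 and S100g (0.994 to 0.992), and Emx1 to Kng1, Emilin3 and Hoxa2 (0.995 to 0.993). Ret was closest to Ank2, Pm20d1 and Prss12 (0.977 to 0.972).

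Patterns with fewer near matches were those of Elf3, with 43 genes above 0.95, and Tfap2b, with 1. Elf3 was most like Junb (r = 0.989), Vps53 (0.980) and Ier2 (0.977), of which Junb and Ier2 are immediate early genes. Tfap2b was most like Lrrfip2, Mis18a and Enc1 (0.960 to 0.936). For Irx1 the nearest were Fhl1, Stk35 and Pck1 (0.884, 0.850 and 0.846), and for Irx2 Snhg11, Ptprd and Thoc2l (0.913, 0.883 and 0.844).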

How the data were processed

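The authors deposited RMA values on the log2 scale, 1 per probe set and array, with RMA named in the submitters' processing notes. The software version and whether both segments were normalised in 1 run are not given in the sources used here. Values were used as deposited. Probe sets were named through GEO's platform annotation (34958 with 1 gene symbol, 932 with several, 9211 with none), and 34754 of the first matched the reference gene table (GRCm38.p6) by gene number. Each of the 18194 genes was read at its probe set with the highest mean.

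Segment differences average the 6 times of each segment with equal weight and subtract CCD from DCT/CNT. They were tested with limma 3.58.1 in R 4.3.3 over all 24 arrays (moderated test, and treat against 2-fold). Rhythm was tested with a 24 h cosinor for both segments together (moderated F test on the cosine and sine terms). P-values were adjusted by Benjamini-Hochberg over all genes and called under 0.05. Errors are limma's standard errors. The fits were tested on simulated data. Precision is limited by the number of arrays.

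The 10 genes, the lists and the tests were chosen with earlier results of these data known. Named genes were the 10, up to 4 of each related list with the largest difference beyond 2-fold, the 3 most similar patterns per gene, and 3 defining markers. Alternatives were 3 rescalings, leaving out dim genes, other uses of probe sets, array weights, another variance prior, leaving out arrays, times or pools low in Slc12a3, a pool block, marker covariates, a segment fitted alone and an F test over group means. The labels give no batch. Pool numbers were not taken as pairs in the main fits. Deviations of same-numbered pools in both segments correlated at -0.03 to 0.09, which cannot tell whether these pools shared animals.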

Additional observations from a re-analysis of the deposited data

How the results depend on the processing

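Under the alternatives that tested all 10 genes, 8 or 9 were called between the segments, against 9 in the main fit. Without dim genes, which left Ret, Irx1 and Irx2 untested, 7 were called. The calls beyond 2-fold numbered 2 to 4 under the alternatives, against 3. Elf5, Gata3, Elf3, Pou3f3, Sall1, Emx1 and Ret kept their direction and their call at adjusted p under 0.05 under every alternative that tested them. Beyond 2-fold, Emx1 lost its call with averaged probe sets, and Gata3 gained one under 8 alternatives. Irx2 lost its call after quantile and cyclic loess normalisation. Tfap2b turned from -0.14 to 0.073 with equal array medians and to 0.33 after quantile and 0.33 after cyclic loess normalisation, and it lost its call in 17 of 24 fits without an array. The median gene moved from -0.13 to 0.08, 0.04 and 0.03 under these rescalings. Genes called rhythmic in DCT/CNT, 1 of 10, were 2 without dim genes and 2 with an intensity trend and robust prior, where Pou3f3 joined Tfap2b. They were 0 with averaged probe sets, array weights, the segment fitted alone or the F test over group means, and 0 without ZT0, ZT4, ZT8 or ZT20. Without ZT16 the 1 gene called was Elf5 (adjusted p = 0.0333), and Tfap2b was lost (0.140). Leaving out 1 array gave 0 to 2, and in CCD 0 to 1. The cause was not tested. With same-numbered pools of both segments paired within each time, 8 genes were called between segments (Tfap2b lost, limma adjusted p = 0.0707) and 3 beyond 2-fold. The rhythm fit instead took pool number as 1 offset shared by all times. It called 1, 0 and 0 genes for rhythm in DCT/CNT, in CCD and their difference. Over all genes, 502 were beyond 2-fold, against 321 after quantile, 319 after cyclic loess normalisation, 299 without dim genes and 1035 over all probe sets. The segment test called 14075 genes, against 7703 without dim genes and 32590 over all probe sets. Rhythm was called for 1195 genes in DCT/CNT and 449 in CCD, against 748 and 819 with array weights, 226 and 456 with segments fitted alone, 450 and 117 by the F test, 647 and 310 with marker covariates, and 565 to 788 and 132 to 255 without a time. In CCD, the intensity trend gave 702. The rhythm difference was called for 2 genes, and for 1 to 6 under the alternatives.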
